A study of Mus musculus with 24 samples.

Results

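Pericytes, the mural cells that wrap the smallest vessels, were compared between ALK5-mutant and control mouse brains at E11.5, counted in embryonic days, gene by gene. Described here are all genes whose mean normalized count was 10 or more in either group, which were 19547 of the 21860 genes that the authors' deposited table lists. The cut used the level alone and not the change. In the authors' deposited table the genes nearest to it were Sp110 and Grm4 just outside, with higher means of 9.99 and 9.99, and Parp14 and Kcnc1 just inside, with 10 and 10.01. An FDR, which is needed to call a change, was given for 19273 of the 19547 genes.

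The 4 control samples came from embryos of the genotype Pdgfrb-Cre, Alk5(flox/+), Zs/+, and the 4 mutant samples from Pdgfrb-Cre, Alk5(flox/flox), Zs/+ embryos, labelled normal and GMH-IVH. Every sample of both groups thus carried the Cre, the ZsGreen reporter and at least 1 floxed Alk5 allele, and none of the groups used here lacked Cre. No sample received a treatment. Cells were sorted from brain by flow cytometry and went straight into RNA isolation. The labels call them both pericytes and mesenchymal cells, and Pdgfrb is active in other mural and mesenchymal cells besides pericytes. The sources used here do not give sex, litter or pooling of embryos, so a p-value measures the spread between samples that may be technical replicates. The table holds 1 mean per group and no value per sample, so values per library, their overlap between groups and their depth were not analysed here.

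ALK5 is the older name of TGFBR1, the type I receptor through which TGF-beta ligands activate SMAD2 and SMAD3. The ligand first binds the type II receptor, which then phosphorylates ALK5, and the activated SMADs enter the nucleus with SMAD4 and change transcription. In developing brain vessels this pathway acts in pericytes and endothelial cells, and it is known for its control of matrix production, mural cell differentiation and proliferation. Embryonic brain pericytes derive in part from neural crest and mesoderm and multiply while vessels invade the neural tissue.

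Tgfbr1 itself (chromosome 4, positions 47353222 to 47414931, plus strand, mm10) had means of 4609 in controls and 6196 in mutants per the authors' deposited table, with a log2 ratio of 0.43 and an FDR of 0.399. This level covers the whole gene, so it does not test whether the floxed part was lost. Of the pericyte markers, 15 of 16 were listed at a mean of 10 or more, and their summed means were 17821 in controls and 13900 in mutants. By the authors' FDR 5 of these 15 markers were lower and 1 higher, and 12 ratios were below 1. Markers of some other cell types had lower sums and of others higher ones. The 10 tested endothelial markers summed to 1260 and 680, the 14 myeloid ones to 2796 and 1426, and the 4 erythroid ones to 109 and 43.3, while the 15 markers of fibroblasts and meninges summed to 106652 and 80516. Pecam1, Tie1 and Cldn5, all endothelial, have no value at E11.5 per the authors' deposited table. The deposited ratios ran with the level: the median log2 ratio was -0.24 in the lowest 25% of genes by level, -0.07 and 0.03 in the middle groups and 0.10 in the highest. Among protein coding genes it was -0.13 in the longest 25% of transcripts and -0.01, 0.01 and -0.01 in the others. The size of the authors' test statistics was 1.51 times that of a standard normal at the median, and 17.8% of genes had an unadjusted p under 0.05. The part of the spread between libraries in this was not tested.

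Mutant pericytes had less RNA of many more genes than they had more of. By the authors' FDR under 0.05 in the deposited table, 646 of the 19273 genes (3.35%) were called changed, 522 of them lower in mutants (2.71%) and 124 higher (0.643%). Called lower genes had a median log2 ratio of -1.06, a 2.09-fold fall, with a median SE of 0.28. Of them 280 (53.6%) fell at least 2-fold. Called higher genes had a median of 0.74, a 1.68-fold rise, with a median SE of 0.21, and 35 of them (28.2%) rose at least 2-fold. The higher of the 2 group means had a median of 241 for lower calls and 576 for higher calls. A gene with a larger SE needs a larger ratio to be called, so these sizes do not show that falls were larger over all genes. The SE of a log2 ratio follows from the authors' p and is given below after the sign ±. Over all genes tested the median log2 ratio was -0.004. With the authors' test statistics rescaled to the median size of a standard normal, 3 of the lower genes (Fst, Adamtsl2 and Serinc2) and 2 of the higher ones (Ndnf and Phactr3) kept their call, so every other call below depends on the spread as the authors estimated it. These are bulk samples, in which fewer cells of a type and less RNA per cell cannot be told apart.

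**Figure D1:**
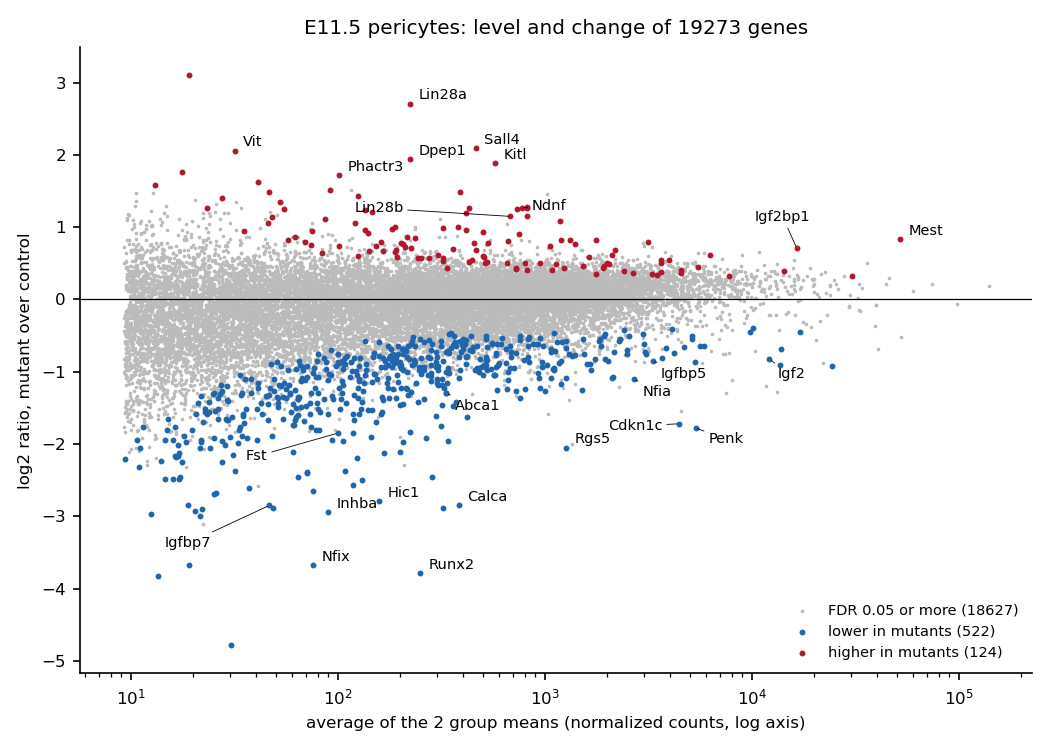
Level and change of the 19273 tested genes in E11.5 pericytes. Each point is a gene, with the average of the authors' 2 group means (normalized counts, log axis) across and the log2 ratio of mutant over control upwards. Blue points are the 522 genes called lower and red points the 124 called higher. Runx2, Nfix and Inhba lie at the bottom and Lin28a, Sall4, Dpep1 and Kitl near the top, while Mest and Igf2bp1 changed at much higher levels.

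Protein coding genes made up 70.6% of the genes tested, 93.3% of those called lower and 79.0% of those called higher. Pseudogenes were 15.6% of the genes tested, and 7 of them (1.34% of the lower calls) were called lower and 18 (14.5% of the higher calls) called higher. Reads of pseudogenes and their parent genes can be shared, and the sources used here do not give the counting rule, so single pseudogenes are not named. A set of 38 lists of pathways and gene families, with 1427 tested genes, held 129 of the called genes, 104 lower and 25 higher. Together with the lists of cell type markers and 5 families assembled after the values were seen, the lists held 178 called genes, and 468 lay outside all of them.

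The genes with the smallest p among the falls encode proteins of varied kinds. Fst encodes follistatin, which binds activins, and fell from a mean of 156 to 43.2 (log2 ratio -1.85 ± 0.24, FDR 1.53e-10) per the authors' deposited table. Adamtsl2, whose secreted protein binds microfibrils, went from 109 to 19.8 (log2 ratio -2.46 ± 0.34, FDR 2.00e-09) per the authors' deposited table. Serinc2 encodes a membrane protein of a family that incorporates serine into lipids, and fell from 467 to 170 (log2 ratio -1.46 ± 0.21, FDR 3.62e-08) per the authors' deposited table. The transcriptional repressor gene Hic1 (chromosome 11, positions 75164565 to 75169519, minus strand, mm10) fell 6.94-fold, from 276 to 39.8 (log2 ratio -2.79 ± 0.44, FDR 4.43e-07) per the authors' deposited table. The other leading falls included enzymes and small regulatory proteins of varied kinds. Gba2, a glucosylceramidase outside the lysosome, fell 1.93-fold, and Rab24, a small GTPase linked to autophagy, 2.27-fold, with log2 ratios of -0.95 ± 0.17 and -1.18 ± 0.22 per the authors' deposited table. Ypel3, a small zinc-binding protein gene linked to growth arrest, fell 3.73-fold (log2 ratio -1.90 ± 0.33), and Rflnb, a partner of filamin, 2.07-fold (-1.05 ± 0.20) per the authors' deposited table. Pink1, the kinase that marks damaged mitochondria, fell 2.21-fold and the lamin A gene Lmna 2.34-fold (FDR 0.00652 and 0.0464 per the authors' deposited table). Those last genes, like Malat1, were chosen after their values were seen. Malat1, an abundant nuclear noncoding RNA, fell from 32053 to 16929 (log2 ratio -0.92 ± 0.20, FDR 0.00107) per the authors' deposited table.

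The genes that rose with the smallest p were also of varied kinds, and the early embryonic regulators among them are given further below. Ndnf, a secreted protein gene first studied in neurons and also known from endothelial cells, rose from 452 to 1090 (log2 ratio 1.27 ± 0.18, FDR 2.32e-08) per the authors' deposited table. Phactr3, which encodes a regulator of protein phosphatase 1 and actin, rose from 47.5 to 156 (log2 ratio 1.72 ± 0.26, FDR 7.37e-08) per the authors' deposited table. Kitl (chromosome 10, positions 100015630 to 100100416, plus strand, mm10) encodes the ligand of the KIT receptor, on which melanoblasts, germ cells and blood progenitors depend, and rose from 245 to 906 (log2 ratio 1.89 ± 0.31, FDR 1.41e-06) per the authors' deposited table. Vit, which encodes the matrix protein vitrin, rose 4.17-fold but from a mean of only 12.3, and Dpep1, a membrane dipeptidase gene, rose 3.83-fold from 92.4 per the authors' deposited table. The integrin beta-3 gene Itgb3 rose 2.40-fold and the polysialyltransferase gene St8sia4 2.22-fold, with log2 ratios of 1.26 ± 0.23 and 1.15 ± 0.24 per the authors' deposited table. Kynu, an enzyme of tryptophan breakdown, rose 2.36-fold, and Dusp9, a phosphatase that inactivates ERK, 2.12-fold per the authors' deposited table. Corin, a protease that activates natriuretic peptides, rose 1.98-fold and the neurensin gene Nrsn1 2.81-fold, at log2 ratios of 0.99 ± 0.23 and 1.49 ± 0.26 per the authors' deposited table.

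Several regulators of the early embryonic state rose, and their list had the highest share of called members among the 38 lists. LIN28A and LIN28B bind RNA, block the maturation of let-7 microRNAs and are themselves silenced by let-7 as development proceeds. Of 16 tested genes of this kind 6 rose and 0 fell (37.5% called, against 3.35% of all genes), and the median log2 ratio was 0.51. Their ratios were over 1 for 13 genes and below 1 for 3, the lowest log2 ratio being -1.57. Lin28a went from 59.4 to 389 (log2 ratio 2.71 ± 0.44, FDR 1.30e-06) and Lin28b from 424 to 939 (log2 ratio 1.15 ± 0.24, FDR 3.84e-04) per the authors' deposited table. The transcription factor gene Sall4 rose from 175 to 751 (log2 ratio 2.10 ± 0.35, FDR 2.82e-06) per the authors' deposited table. Trim71, a let-7 target whose protein represses messenger RNAs, rose 2.41-fold (log2 ratio 1.27 ± 0.37) per the authors' deposited table. The RNA-binding genes Igf2bp1 and Igf2bp3 rose from much higher control levels, 12465 to 20461 and 3014 to 4290, with FDR 0.0109 and 0.0106 per the authors' deposited table. Lin28a was chosen for an earlier account of these data, and the list was drawn up with that known. Prtg, a cell surface protein gene of early neural and mesodermal tissue that lies outside the list, rose 2.38-fold per the authors' deposited table. Of the 26 Hox genes searched, 23 were not listed, and Hoxa2 had a mutant mean of 40.9 and a log2 ratio of 1.19 without being called per the authors' deposited table.

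The let-7 family is shown because its shared seed is what LIN28-regulated microRNAs use to recognise messenger RNAs. The mature RNAs themselves were not measured in these libraries of messenger RNA. Sequences are those of RefSeq on GRCm38, 5′ to 3′, with the seed (bases 2 to 8) in capitals, and every one of the 9 family members found has the seed GAGGUAG.
mmu-let-7a-5p: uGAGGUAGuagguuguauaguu
mmu-let-7c-5p: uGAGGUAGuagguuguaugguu
mmu-let-7g-5p: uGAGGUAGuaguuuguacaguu
mmu-miR-98-5p: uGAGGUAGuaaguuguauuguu
Mature let-7c comes in part from chromosome 16, positions 77599672 to 77599693 on the plus strand, inside the noncoding host gene Mir99ahg. Mir99ahg had means of 1626 and 1214, a log2 ratio of -0.42 ± 0.17 and an FDR of 0.158 per the authors' deposited table. The hosts of let-7g and miR-98, Wdr82 and Huwe1, had log2 ratios of 0.07 ± 0.13 and -0.11 ± 0.14 with FDR of 0.811 and 0.710 per the authors' deposited table. No host gene of the family with a value was called, and the host genes were chosen after the values were seen.

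Some transcription factors of head mesenchyme fell, and none of those listed was called higher. Of 50 tested forkhead, T-box, paired and odd-skipped factors and their relatives 9 fell, where 2.71% of all genes did, with a median log2 ratio of -0.57. Osr2 and Osr1, odd-skipped factors of craniofacial mesenchyme, fell from 422 to 112 (log2 ratio -1.92 ± 0.40, FDR 4.42e-04) and from 1535 to 852 (log2 ratio -0.85 ± 0.25, FDR 0.0265) per the authors' deposited table. Six2, known from mesenchymal progenitors, fell from 1418 to 587 (log2 ratio -1.27 ± 0.33, FDR 0.00932) and the T-box repressor gene Tbx2 from 126 to 36.3 (log2 ratio -1.80 ± 0.41, FDR 0.00205) per the authors' deposited table. Foxs1 and Foxq1, both forkhead genes, fell 1.95-fold and 2.77-fold, and Foxs1 is known as a gene of mural cells (log2 ratios -0.96 ± 0.26 and -1.47 ± 0.39 per the authors' deposited table). Emx2 and Barx1 fell 3.38-fold and 4.15-fold, and Twist2 from 1457 to 970, although Barx1 had a control mean of only 39.0 per the authors' deposited table. Runx2, the master factor of bone formation, fell most among the called genes with a group mean of 100 or more. It went from 466 to 33.6 (log2 ratio -3.79 ± 0.79, FDR 4.76e-04) per the authors' deposited table. Beside them, the list of 15 fibroblast and meningeal markers held 5 called lower and 1 called higher, 13 ratios were below 1, and the median log2 ratio was -0.78. Their part in the falls of these factors was not tested.

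Of the 4 nuclear factor I genes, which encode DNA-binding proteins known for driving late differentiation steps in brain and muscle, every member fell. Nfix (chromosome 8, positions 84699876 to 84800344, minus strand, mm10) dropped 12.7-fold, from 141 to 11.1 (log2 ratio -3.67 ± 0.59, FDR 7.77e-07) per the authors' deposited table. Nfib went from 2119 to 889 (log2 ratio -1.25 ± 0.26, FDR 3.83e-04) and Nfia from 3678 to 1710 (log2 ratio -1.10 ± 0.28, FDR 0.00732) per the authors' deposited table. Nfic fell 2.12-fold, with a log2 ratio of -1.09 ± 0.23 per the authors' deposited table. Together with nuclear receptors they formed a list of 25 tested genes with 6 falls and 0 rises (24.0% called, against 3.35% of all genes). Its median log2 ratio was -0.46. The other called members were Thra, the thyroid hormone receptor alpha gene, at -0.84 ± 0.25, and the orphan receptor gene Nr4a2 at -0.70 ± 0.21 (FDR 0.0287 and 0.0351 per the authors' deposited table).

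Other transcription factors fell outside these lists and were chosen after their values were seen or for their small p. The paralogs Bcl11b and Bcl11a, zinc-finger repressor genes, fell 2.37-fold and 1.71-fold per the authors' deposited table. Eya4, a transcriptional co-activator, fell 2.58-fold, Maf 1.86-fold and Mef2c, a factor of muscle and vessel development, 1.85-fold (log2 ratios -1.37 ± 0.27, -0.89 ± 0.24 and -0.88 ± 0.25 per the authors' deposited table). A family list assembled after the values were seen joined E proteins, their inhibitors of the ID family and TLE co-repressors. Of its 13 tested members 5 fell and 0 rose (38.5% called, against 3.35% of all genes), with a median log2 ratio of -0.37. The E protein genes Tcf3 and Tcf4 had log2 ratios of -0.73 ± 0.21 and -0.75 ± 0.22, the co-repressor genes Tle2 and Tle5 of -1.22 ± 0.33 and -0.88 ± 0.25, and Id4 of -1.56 ± 0.43 per the authors' deposited table. Being picked for its calls, this family is a description only.

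**Figure D2:**
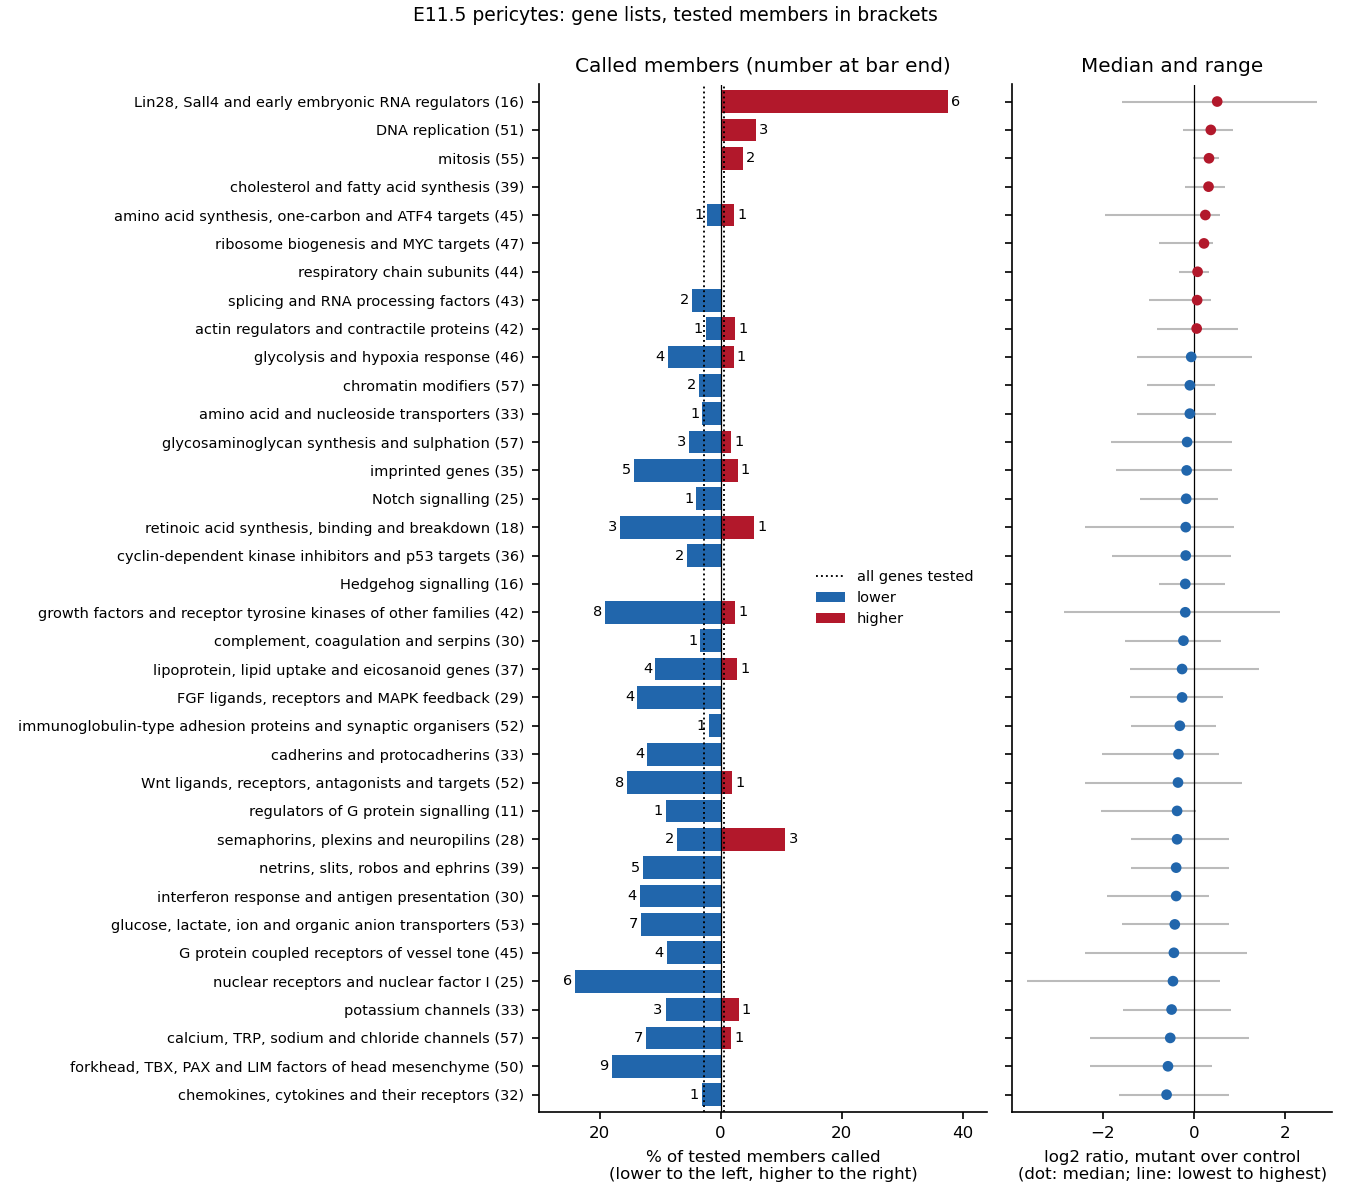
Called members and medians of 36 functional lists with at least 10 tested genes. On the left, bars give the percent of tested members called lower (blue, leftwards) or higher (red, rightwards) with their number at the end, and dotted lines mark 2.71% and 0.643% of all genes. On the right, dots are the median log2 ratio and lines run from the lowest to the highest member. The Lin28 list stands out on the right with 6 rises, and the nuclear receptor list on the left with 6 falls.

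Genes at several steps of Wnt signalling fell. Of 52 tested members 8 fell and 1 rose (17.3% called, against 3.35% of all genes), and the median log2 ratio was -0.35. WNT ligands bind Frizzled receptors and stabilise beta-catenin, and LGR5 and RNF43 tune the amount of receptor on the surface. Fzd9 fell 5.23-fold, from 119 to 22.7 (log2 ratio -2.39 ± 0.54, FDR 0.00159), and Fzd6 1.82-fold per the authors' deposited table. In the authors' deposited table Lgr5 fell 3.17-fold, from 94.1 to 29.7, and Rnf43 4.44-fold from a mean of 51.0, the log2 ratios being -1.67 ± 0.43 and -2.15 ± 0.64. The secreted or membrane antagonist genes Apcdd1, Sfrp1 and Sfrp2 fell 2.68-fold, 1.47-fold and 1.32-fold, the last from a mean of 4669 per the authors' deposited table. Of the ligand genes, Wnt11 fell 2.50-fold and Wnt16 rose 2.08-fold, from means of 66.4 and 29.9 per the authors' deposited table.

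Feedback genes of receptor tyrosine kinase signalling made up most of the falls in the FGF list. Of its 29 tested members 4 fell and 0 rose (13.8% called, against 3.35% of all genes), and the median log2 ratio was -0.26. SPRED2, SPRED3 and IL17RD all dampen the RAS to ERK cascade. Their genes had log2 ratios of -0.94 ± 0.26, -1.19 ± 0.31 and -0.85 ± 0.26, and the receptor gene Fgfr2 one of -0.58 ± 0.18 per the authors' deposited table. Of 25 Notch genes 1 fell, the target gene Hey2, at -0.55 ± 0.15 (FDR 0.0125 per the authors' deposited table), and the median was -0.17. The Notch share of 4.00% called lay near the 3.35% of all genes. Among 16 Hedgehog genes 0 were called by the authors' FDR from DESeq2, 4 had an unadjusted p under 0.05, and the median log2 ratio was -0.19.

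Guidance genes moved in both directions. Semaphorins steer growing axons and vessels through plexin and neuropilin receptors, and their class 3 members are secreted. Of 28 tested genes 3 rose and 2 fell (17.9% called, against 3.35% of all genes), with a median log2 ratio of -0.37. The 3 rises were the class 3 ligand genes Sema3a, Sema3d and Sema3e. Sema3a rose from 1671 to 2558 (log2 ratio 0.61 ± 0.16, FDR 0.0118) per the authors' deposited table. Sema3d and Sema3e had log2 ratios of 0.78 ± 0.25 and 0.59 ± 0.18 per the authors' deposited table. The membrane-bound semaphorin genes Sema6c and Sema5b fell 2.59-fold and 2.19-fold per the authors' deposited table. Among 39 netrin, slit, robo and ephrin genes 5 fell and 0 rose (12.8% called, median -0.39). These were the ligand genes Ntn3 and Slit3, the receptor genes Ephb1 and Ephb3, and Rgmb, whose product binds neogenin and BMPs. By the authors' deposited table Ntn3 fell from 444 to 222 (FDR 0.00695) and Ephb1 from 92.4 to 35.4 (FDR 0.0230).

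Among secreted growth factors, their receptors and binding proteins, Kitl was the called gene that rose. Of 42 tested genes 8 fell and 1 rose (21.4% called, against 3.35% of all genes), at a median log2 ratio of -0.19. The insulin-like growth factor axis supplied 5 of the falls. Igf2, a main fetal growth factor, went from 15538 to 8753 (log2 ratio -0.83 ± 0.26, FDR 0.0425) per the authors' deposited table. The binding protein genes Igfbp7, Igfbp3, Igfbp5 and Igfbp2 fell 7.20-fold, 2.33-fold, 1.80-fold and 1.56-fold, with FDR 3.96e-07, 0.0410, 2.87e-05 and 0.00326 per the authors' deposited table. Hgf, the ligand of MET, fell from 114 to 46.2 (log2 ratio -1.30 ± 0.30, FDR 0.00207) per the authors' deposited table. The neuregulin receptor gene Erbb4 fell 2.96-fold, at means under 50, per the authors' deposited table. Nrtn and Ctf1, which encode the trophic factors neurturin and cardiotrophin, were chosen after their values were seen and fell 3.27-fold and 3.03-fold per the authors' deposited table.

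Retinoic acid is made by ALDH1A enzymes, carried by CRABP2 and removed by CYP26 enzymes, so that the balance of these sets its local level. Of 18 tested genes 3 fell and 1 rose (22.2% called, against 3.35% of all genes), with a median log2 ratio of -0.18. The synthesis genes Aldh1a2 and Aldh1a3 fell 4.33-fold and 4.53-fold per the authors' deposited table, the latter from 27.0 to 5.97. The breakdown gene Cyp26b1 fell 5.19-fold, from 182 to 35.0 (log2 ratio -2.38 ± 0.40, FDR 2.55e-06) per the authors' deposited table. Crabp2 rose from 1705 to 2390 (log2 ratio 0.49 ± 0.14, FDR 0.0183) per the authors' deposited table. Aldh1a2 and Crabp2 are also among the markers of meninges, and these 2 moved in opposite directions.

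**Figure D3:**
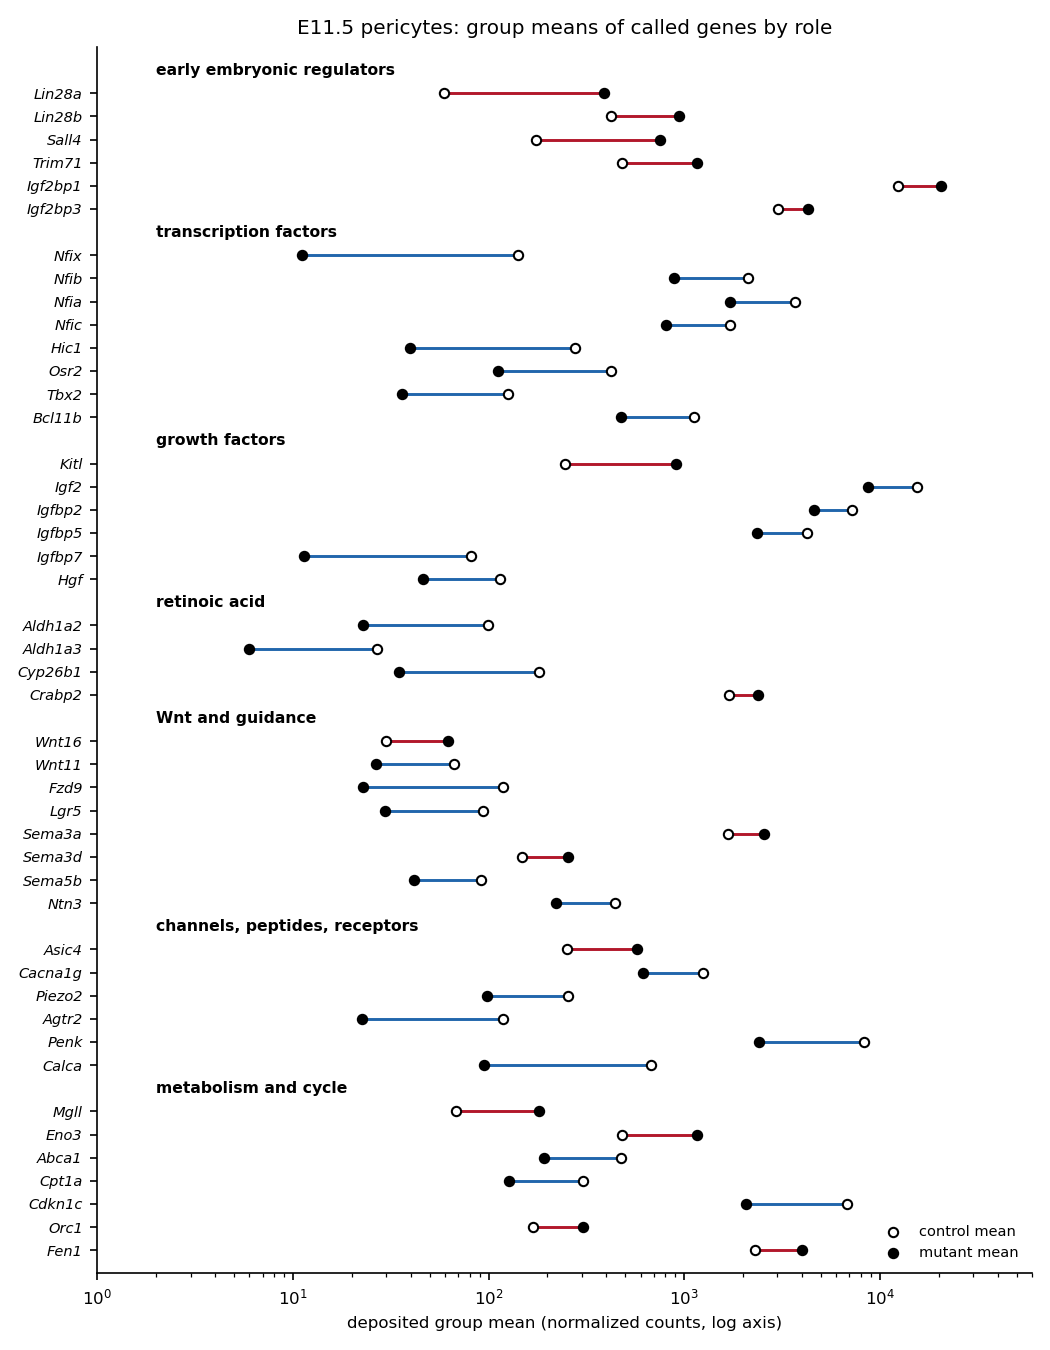
Group means of 45 called genes, ordered by role. Open circles are the authors' control means and filled circles their mutant means (normalized counts, log axis), joined by a red line where the gene was higher in mutants and a blue one where it was lower. There are no error bars, since the table holds 1 mean per group. Of the called genes drawn, the early embryonic regulators run to the right, and the nuclear factor I genes, Hic1, Osr2, Tbx2 and Bcl11b to the left. Members of the lists that were not called are not shown.

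Some channel genes of excitability and calcium entry fell, and 1 in each of 2 lists rose. Pericytes set their membrane potential with ATP-sensitive and other potassium channels, and voltage-gated calcium channels link depolarisation to contraction. Of 57 calcium, TRP, sodium and chloride channel genes 7 fell and 1 rose, with 51 ratios below 1 and a median log2 ratio of -0.52. The T-type channel genes Cacna1g and Cacna1h fell 2.03-fold and 1.96-fold, and the L-type gene Cacna1c fell 1.90-fold per the authors' deposited table. The auxiliary subunit genes Cacng4 and Cacnb3 had log2 ratios of -1.32 ± 0.32 and -0.64 ± 0.18 per the authors' deposited table. Piezo2, a channel opened by stretch, fell from 255 to 98.4 (log2 ratio -1.37 ± 0.27, FDR 1.93e-04), and the sodium channel gene Scn1a 1.68-fold per the authors' deposited table. Asic4, of the acid-sensing channel family, was the member that rose, from 251 to 577 (log2 ratio 1.20 ± 0.29, FDR 0.00385) per the authors' deposited table. Among 33 potassium channel genes 3 fell and 1 rose (12.1% called, median -0.49). Kcnj8, the pore of the vascular ATP-sensitive channel, fell from 662 to 381 (log2 ratio -0.80 ± 0.17, FDR 5.57e-04) per the authors' deposited table. Kcnk1 had a log2 ratio of -0.81 ± 0.20, and Kcnf1, which rose, one of 0.82 ± 0.25 per the authors' deposited table. The tested channel genes of these lists had median longest transcripts of 4934 and 4089 bases, against 3470 over all protein coding genes, and median levels of 154 and 57.4 against 425. The part of length and level in these counts was not tested.

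A few receptor genes of vessel tone fell. Of 45 tested G protein coupled receptor genes 4 fell and 0 rose (8.89% called, against 3.35% of all genes), 17 had ratios over 1, and the median log2 ratio was -0.44. Agtr2, the type 2 receptor of angiotensin, fell 5.27-fold, from 119 to 22.5 (log2 ratio -2.40 ± 0.48, FDR 2.39e-04), and the adenosine receptor gene Adora2a 2.72-fold per the authors' deposited table. The lysophosphatidic acid receptor gene Lpar4 and the natriuretic peptide clearance receptor gene Npr3 had log2 ratios of -0.53 ± 0.14 and -0.81 ± 0.24 per the authors' deposited table. Of 11 regulators of G protein signalling 1 fell (9.09% called). It was the pericyte marker Rgs5, from 2034 to 490 (log2 ratio -2.05 ± 0.62, FDR 0.0370) per the authors' deposited table. A further 3 families were assembled after the values were seen, so their counts are descriptions of what was noticed. In the family of cyclic AMP enzymes 10 of 36 tested genes fell and 0 rose (27.8% called, median -0.52). It included the adenylyl cyclase genes Adcy5 and Adcy9 (-0.95 ± 0.28 and -0.92 ± 0.27), the phosphodiesterase genes Pde4b and Pde8a (-0.74 ± 0.21 and -1.43 ± 0.43) and the effector genes Rapgef5 and Rapgef3 (-1.05 ± 0.21 and -0.78 ± 0.22), all log2 ratios from the authors' deposited table. In the family of adhesion G protein coupled receptors 4 of 15 fell (26.7% called). Adgrb2 led at -1.58 ± 0.31, and Adgrb3 passed just under the FDR of 0.05 per the authors' deposited table. In the family of peptide genes, processing enzymes and peptide receptors 8 of 22 fell and 0 rose (36.4% called), with a median of -0.63.

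Several genes of peptide hormones, peptide receptors and processing enzymes fell, Penk from a high level and the others from lower ones. Penk, the precursor of the enkephalin opioid peptides, dropped from 8288 to 2411 (log2 ratio -1.78 ± 0.28, FDR 6.57e-07) per the authors' deposited table. Calca, the gene of calcitonin and of the vasodilator peptide CGRP, fell 7.16-fold, from 677 to 94.6 (log2 ratio -2.84 ± 0.65, FDR 0.00229) per the authors' deposited table. The kappa opioid receptor gene Oprk1 and the neuropeptide Y receptor gene Npy1r fell 2.29-fold and 3.34-fold per the authors' deposited table. Stc1 and Stc2, the stanniocalcin genes, fell 1.91-fold and 3.25-fold, and the processing enzyme genes Cpe and Pcsk6 1.88-fold and 2.85-fold per the authors' deposited table.

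Lists of adhesion and transport genes differed in their share of called members. Of 33 cadherins and protocadherins 4 fell and 0 rose (12.1% called, median log2 ratio -0.34). These were Pcdh1 (-1.11 ± 0.27), Pcdh12 (-2.02 ± 0.53), Pcdh17 (-1.15 ± 0.34) and Cdh13 (-0.85 ± 0.26) per the authors' deposited table. Of 52 immunoglobulin-type adhesion and synapse-organising genes 1 fell, the neuroligin gene Nlgn1 at -1.38 ± 0.42 per the authors' deposited table. Its share of 1.92% called lay below the 3.35% of all genes. Among 53 transporters of glucose, lactate, ions and organic anions 7 fell and 0 rose (13.2% called, median -0.42). The organic anion transporter gene Slc22a6 fell 2.99-fold per the authors' deposited table. The export pump gene Atp2b4, which removes calcium, had a log2 ratio of -0.55 ± 0.17 and the anion transporter gene Slco3a1 one of -0.96 ± 0.26 per the authors' deposited table. Of 33 amino acid and nucleoside transporter genes 1 fell, the glutamate transporter gene Slc1a1, 2.37-fold per the authors' deposited table. That list's share of 3.03% called also lay below that of all genes. Its ratios were below 1 for 19 genes and over 1 for 14, with a median log2 ratio of -0.09.

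Actin and contractile genes stayed near the median of all genes. Of 42 tested 1 rose and 1 fell (4.76% called, against 3.35% of all genes), and the median log2 ratio was 0.06. Des, the muscle intermediate filament gene and a marker of pericytes, rose from 124 to 242 (log2 ratio 0.97 ± 0.21, FDR 0.00101) per the authors' deposited table. Palld, which encodes the actin-bundling protein palladin, fell 1.34-fold per the authors' deposited table. None of the 7 smooth muscle markers was called by the authors' FDR from DESeq2, 2 had an unadjusted p under 0.05, and their summed means were 9921 and 10220.

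Imprinted genes, which are expressed from 1 parental copy and many of which control fetal growth, changed in both directions. Of 35 tested 5 fell and 1 rose (17.1% called, against 3.35% of all genes), with a median log2 ratio of -0.16. Cdkn1c, an imprinted inhibitor of cyclin-dependent kinases that holds cells out of the cycle, fell from 6809 to 2067 (log2 ratio -1.72 ± 0.34, FDR 2.20e-04) per the authors' deposited table. Plagl1, a zinc-finger regulator of that network, fell 1.63-fold and the noncoding gene Meg3 1.37-fold per the authors' deposited table. The growth factor gene Igf2, given above, and the proteoglycan gene Dcn at -1.09 ± 0.34 were the other falls per the authors' deposited table. Mest, one of the most abundant messenger RNAs here, rose from 37295 to 66698 (log2 ratio 0.84 ± 0.16, FDR 7.84e-05) per the authors' deposited table.

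Proliferation genes lay slightly above 1 almost throughout, with few passing singly. Of 51 DNA replication genes 48 had a ratio over 1, and the median log2 ratio was 0.37. Of these genes 3 rose (5.88% called, against 3.35% of all genes). These were the origin recognition gene Orc1 (0.85 ± 0.24), the flap endonuclease gene Fen1 (0.79 ± 0.22) and the ribonucleotide reductase gene Rrm1 (0.54 ± 0.17) per the authors' deposited table. Of 55 mitosis genes 54 had a ratio over 1, the median was 0.33, and 3.64% were called, near the share of all genes. Plk4, which starts centriole duplication, and Cdca8 rose 1.38-fold and 1.37-fold per the authors' deposited table. Besides Cdkn1c, the inhibitor gene Cdkn2c fell among 36 inhibitors and p53 targets (5.56% called), from 30.5 to 8.74 per the authors' deposited table. Ribosome biogenesis and MYC target genes had 41 of 47 ratios over 1 and a median of 0.22, with 0 called by the authors' FDR from DESeq2 and 7 at an unadjusted p under 0.05. The median levels of the replication and mitosis genes were 1036 and 1429, in the highest 25% of levels, where all genes had a median log2 ratio of 0.10. The part of level in these medians was not tested.

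Metabolic lists lay on both sides of the median of all genes. Cholesterol and fatty acid synthesis genes had 35 of 39 ratios over 1 and a median log2 ratio of 0.32, and amino acid, one-carbon and ATF4 target genes 36 of 45 and 0.25. In the first of these 0 genes were called by the authors' FDR from DESeq2 and 9 had an unadjusted p under 0.05. In the second Mthfd2, a mitochondrial folate enzyme, rose 1.34-fold and the stress-response gene Nupr1 fell 3.87-fold per the authors' deposited table. Respiratory chain subunits had a median of 0.08 with 0 of 44 called by that FDR and 7 at an unadjusted p under 0.05. Of 46 glycolysis and hypoxia genes 4 fell and 1 rose (10.9% called, against 3.35% of all genes). Epas1, the hypoxia-inducible factor gene of vessels, fell from 516 to 261 (log2 ratio -0.98 ± 0.25, FDR 0.00702), and Vegfa, the vessel growth factor gene, from 260 to 110 (log2 ratio -1.24 ± 0.33, FDR 0.0130) per the authors' deposited table. Enolase genes moved oppositely: Eno2, the neuronal form, fell 1.85-fold and Eno3, the muscle form, rose 2.42-fold per the authors' deposited table. Of 37 genes of lipid uptake and eicosanoids 4 fell and 1 rose. The cholesterol export pump gene Abca1 fell from 475 to 193 (log2 ratio -1.30 ± 0.22, FDR 4.20e-06), and Mgll, which breaks down monoacylglycerols, rose from 67.8 to 182 (log2 ratio 1.43 ± 0.25, FDR 6.73e-06) per the authors' deposited table. Ptgs1 and Ptges2, both enzymes of prostaglandin synthesis, fell 2.13-fold and 1.82-fold per the authors' deposited table. Cpt1a, the gatekeeper of mitochondrial fatty acid oxidation and again a later choice, fell 2.36-fold per the authors' deposited table. A list of 57 genes that build glycosaminoglycans, the sugar chains of proteoglycans, or set their sulphation had 7.02% called. Chst14, Sulf2 and Papss2 fell and Chst7 rose, with log2 ratios of -0.73 ± 0.21, -0.50 ± 0.15, -1.35 ± 0.41 and 0.75 ± 0.23 per the authors' deposited table.

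**Figure D4:**
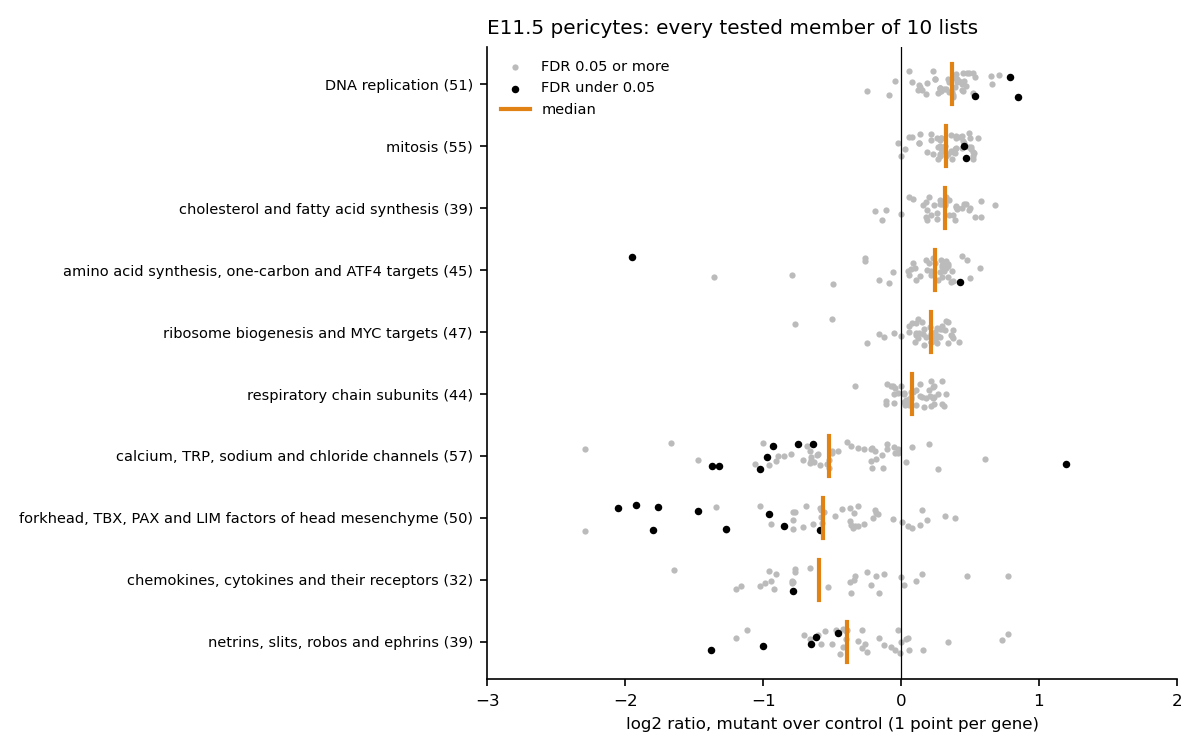
Log2 ratios of every tested member of 10 lists (1 point per gene, black where the authors' FDR was under 0.05, orange bars at the medians). The replication, mitosis and cholesterol lists sit narrowly to the right of 0 with medians of 0.37, 0.33 and 0.32. The channel, head mesenchyme factor, cytokine and netrin lists spread to the left, with medians of -0.52, -0.57, -0.60 and -0.39.

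Splicing and chromatin genes were called at shares near the 3.35% of all genes. Of 43 splicing factors 2 fell (4.65%). Mbnl2, a regulator of developmental splicing, fell from 3627 to 2365 (log2 ratio -0.62 ± 0.12, FDR 1.44e-04), and Rbfox1 1.97-fold per the authors' deposited table. A family of related RNA-binding proteins, assembled after the values were seen, had 8 falls and 0 rises among 20 tested (median log2 ratio -0.46). Celf2, Khdrbs1 and Khdrbs2, all splicing regulators, fell 1.84-fold, 1.63-fold and 2.19-fold per the authors' deposited table. Zfp36l1 and Zfp36l2, which speed the decay of messenger RNAs with AU-rich elements, fell 1.31-fold and 1.77-fold per the authors' deposited table. Of 57 chromatin modifiers the remodeller gene Chd3 and the Polycomb gene Ring1 fell, at -0.76 ± 0.17 and -1.02 ± 0.25 per the authors' deposited table, a share of 3.51% called.

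Some genes of immune cells fell. Of 30 interferon response and antigen presentation genes 4 fell and 0 rose (13.3% called, against 3.35% of all genes), at a median log2 ratio of -0.39. Irf8, a factor of macrophages, fell 2.46-fold and the antiviral genes Bst2, Ifi27 and Oasl2 2.17-fold, 3.07-fold and 3.72-fold per the authors' deposited table. All 14 tested myeloid markers had ratios below 1, with a median of -0.99, and Csf1r, Lyz2, Spi1 and C1qc fell, at -1.10 ± 0.30, -1.53 ± 0.45, -1.31 ± 0.36 and -1.06 ± 0.33 per the authors' deposited table. The summed level of myeloid markers was thus 2796 in controls and 1426 in mutants, and its part in the interferon list was not tested. Among 32 chemokine, cytokine and receptor genes 1 fell (3.12% called), the interleukin-11 receptor gene Il11ra1 at -0.78 ± 0.22 per the authors' deposited table. The list's median of -0.60 was the lowest of all 38. Of 30 complement, coagulation and serpin genes 1 fell (3.33% called), C1qc. In the endothelial list 9 of 10 ratios were below 1, with a median of -0.95, and Erg fell, from 203 to 34.1 (log2 ratio -2.57 ± 0.53, FDR 4.09e-04) per the authors' deposited table. Among markers of cartilage and bone progenitors Dlx5 and Matn4 fell besides Runx2, 6.30-fold and 5.49-fold per the authors' deposited table, and the list's summed means were 37683 and 34994. Other sums were taken over the markers with a mean of 10 or more in either group. Schwann and neural crest markers summed to 278 and 174, and skeletal muscle markers to 781 and 729. Neuron markers summed to 6851 and 7829, neural progenitor markers to 7901 and 7215, and epithelial markers to 322 and 439. The part of all these markers in the falls of the transcription factor, channel and peptide genes was not tested.

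Promoters were searched for 5 short motifs on both strands, in the RefSeq window from 250 bases before to 50 bases after the start (GRCm38.p6), which was found for 384 lower, 71 higher and 11457 of all tested genes. The SMAD-binding hexamer CAGACA occurred in 16.4% of lower, 16.9% of higher and 15.8% of all promoters. The AP-1 motif TGANTCA occurred in 4.95%, 1.41% and 4.42%, the TEAD motif GGAATG in 13.3%, 8.45% and 12.0%, TATAAA in 9.11%, 7.04% and 7.15%, and the E-box CANNTG in 67.2%, 63.4% and 63.1%. Letters of 1 motif can overlap those of another. For lower genes the shares lay near those of all genes, and the 71 promoters of higher genes are few, with TGANTCA occurring in 1 of them. The 250 bases before the RefSeq start of Kitl and Serinc2, the genes with the smallest p among those called that hold CAGACA there in each direction, are printed 5′ to 3′ on the gene's strand, with CAGACA or its reverse complement TGTCTG in capitals.
Kitl, chr10:100015571-100015820, plus strand: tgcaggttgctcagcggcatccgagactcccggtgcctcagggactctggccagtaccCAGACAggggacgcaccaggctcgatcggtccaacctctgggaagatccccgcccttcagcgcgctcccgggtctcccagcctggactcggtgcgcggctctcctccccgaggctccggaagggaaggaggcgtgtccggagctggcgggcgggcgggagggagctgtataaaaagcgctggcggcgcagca
Serinc2, chr4:130275587-130275836, minus strand: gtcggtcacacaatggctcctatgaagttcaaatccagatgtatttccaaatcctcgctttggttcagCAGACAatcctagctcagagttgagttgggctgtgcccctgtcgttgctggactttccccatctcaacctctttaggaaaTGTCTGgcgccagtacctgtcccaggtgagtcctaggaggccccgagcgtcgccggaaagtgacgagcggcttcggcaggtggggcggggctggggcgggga
The motif in the Kitl promoter begins 192 bases before the start, and those of Serinc2 begin 182 and 102 bases before it. GENCODE begins both genes further upstream than RefSeq does, so part of the Kitl window and the whole Serinc2 window lie inside the GENCODE genes. A match of letters is a description and not a binding site.

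At E13.5 the same comparison, made in 4 control and 4 mutant samples of the same genotypes and independent of the E11.5 samples, gave far fewer calls. Of 18249 genes tested at both stages, 632 were called at E11.5 and 75 (0.411%) at E13.5. The 2 tables were normalized separately, so changes rather than levels were tested between them, as the difference of the 2 log2 ratios over the SE of that difference. Of the 18249 genes 262 (1.44%) differed at an adjusted p under 0.05, 246 of them with a more negative ratio at E11.5 and 16 with a more positive one. At E11.5, 226 of the 262 were called lower and 14 called higher, and 9 were called at E13.5. Xist, the RNA of the inactive X chromosome of female cells, had means of 36145 in controls and 5.73 in mutants at E13.5 per the authors' deposited table, and it is not listed at E11.5. Sex and genotype cannot be told apart in the E13.5 values. The E11.5 test statistics were 1.51 times and the E13.5 ones 0.86 times the size of a standard normal at the median, and with both rescaled to it the differences numbered 2.

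Several regulators named above changed differently at the 2 stages by that test. Nfix had a log2 ratio of -3.67 ± 0.59 at E11.5 and -0.07 at E13.5, a difference of -3.60 ± 0.60 (adjusted p = 9.56e-06). Fst went from -1.85 ± 0.24 to 0.01 (adjusted p of the difference 6.08e-07), Hic1 from -2.79 ± 0.44 to 0.02 (4.61e-06) and Abca1 from -1.30 ± 0.22 to 0.08 (2.77e-05). The cell cycle inhibitor gene Cdkn1c had -1.72 ± 0.34 and 0.17, a difference of -1.89 ± 0.35, and Penk -1.78 ± 0.28 and -0.18, a difference of -1.60 ± 0.30. These genes were chosen for a small p of this same test. Of them Fst alone kept its difference with both sets of test statistics rescaled. Of the nuclear factor I genes Nfia, Nfib and Nfic differed too, by -1.18 ± 0.29, -1.20 ± 0.28 and -1.01 ± 0.24. Among the early embryonic regulators Sall4 differed, by 2.05 ± 0.51 (adjusted p = 0.0145), while Lin28a has no FDR at E13.5 and was not tested for a difference, its log2 ratios being 2.71 and 1.23. At E13.5 its means were 4.02 and 9.42 per the authors' deposited table. Ndnf, Dpep1, Mest and Mgll rose at E11.5 with differences of 0.95 ± 0.22, 2.05 ± 0.48, 0.71 ± 0.19 and 1.30 ± 0.34 from E13.5. Gja4, which encodes the vascular gap junction protein connexin 37, differed by -1.66, although its E11.5 log2 ratio of -0.52 was not called (FDR 0.169 per the authors' deposited table). For Gja4 it was the E13.5 ratio, 1.14, that was positive.

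A set of 16 genes was called at both stages. They are 2.53% of the 632 E11.5 calls, where 0.411% of all genes tested at both stages were called at E13.5. They are also 21.3% of the 75 E13.5 calls, where 3.35% of all genes tested at E11.5 were called at E11.5. Of the 16 genes 15 moved in the same direction. Higher at both were Wfdc1, a secreted protease inhibitor gene, Stum, Eno3, Trim71, Asic4, Des, Plekha2 and the copper-binding oxidase gene Cp. Wfdc1 had log2 ratios of 1.51 ± 0.36 at E11.5 and 1.87 ± 0.45 at E13.5, and Asic4 1.20 ± 0.29 and 1.52 ± 0.35. Lower at both were Adamts6, Ddah1, Mmp9, Cpxm2, Runx1, Rgs5 and Erg. Runx1, a factor of blood formation, had -1.84 ± 0.46 and -0.48 ± 0.11, and Ddah1, which degrades an inhibitor of nitric oxide synthase, -0.82 ± 0.23 and -0.40 ± 0.10. Oprk1 was the exception, with -1.20 ± 0.38 at E11.5 and 1.29 ± 0.34 at E13.5. Over the E11.5 calls tested at both stages, the median size of the log2 ratio was 0.98 at E11.5 and 0.10 at E13.5. Those genes were picked by their E11.5 change, so the choice itself favours a larger size at E11.5. Of 515 genes lower at E11.5, 303 (58.8%) had an E13.5 ratio below 1, against 49.6% of all genes, and of 117 higher genes 86 (73.5%) had one above 1, against 50.4%.

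**Figure D5:**
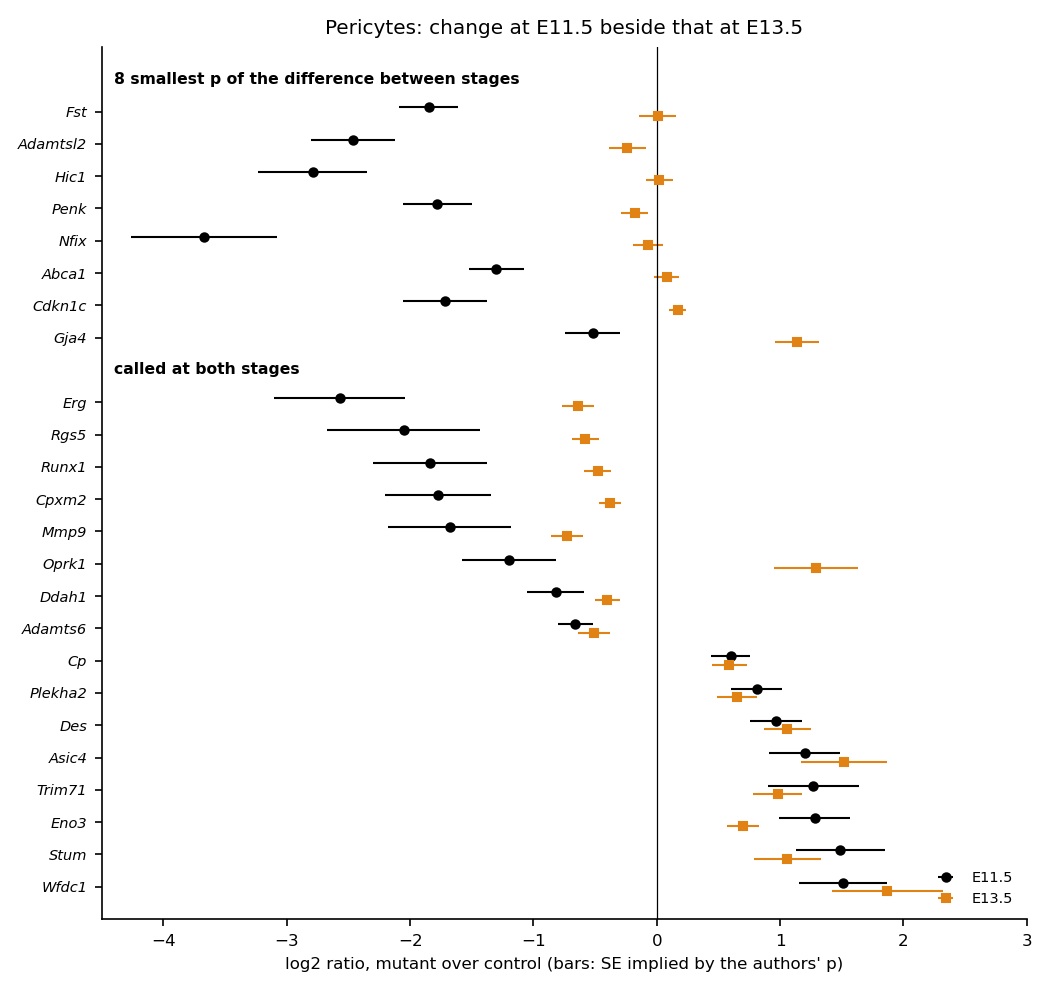
Log2 ratios of mutant over control at E11.5 (black circles) and E13.5 (orange squares), with bars for the SE that the authors' p implies. The upper 8 genes have the smallest p for the difference between stages, and 7 of them sit well below 0 at E11.5 and near 0 at E13.5, Gja4 being the exception. The lower 16 were called at both stages, and all but Oprk1 lie on the same side of 0.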

How the data were processed

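Messenger RNA of sorted brain pericytes was sequenced on a NovaSeq from KAPA libraries, per the labels' protocols. The authors used Partek, Bowtie2, DESeq2 and the mouse build mm10, per the submitters' processing notes, which give no version. The sources used here do not give annotation, counting step or model. The deposited table gives, per its header, the authors' p-value, step-up FDR, ratio, a score that is the signed fold change, and least-squares mean of each group, and the means are a signal, taken here as normalized counts of unknown scale. The deposited FDR equals the Benjamini-Hochberg value over the genes that have one and is printed as the authors' adjusted p from DESeq2.

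The log2 ratio is that of the authors' deposited ratio, and its SE is that ratio divided by the normal quantile of the deposited p, which takes a Wald test as given. Changes at the 2 stages were compared by dividing their difference by the SE combined in quadrature, two-sided, adjusted by Benjamini and Hochberg's method over genes tested at both. The plan foresaw tests on values per library, and the authors' tests were used in their place. The steps were tested on simulated data. Genes, lists and tests were chosen with earlier results of these data known. Named were Tgfbr1, the 20 smallest p and the 15 largest ratios (higher mean 100 or more) in each direction, up to 4 called members per list, or its most abundant member where fewer than 2 were called, the 8 smallest p of the stage difference and the genes beside the mean of 10. Predicted genes and pseudogenes were left out. A few called genes and 1 list are not reported here. Genes named for a family assembled later, as further called members of a list or as called at both stages were chosen after their values were seen. Positions and lengths come from GENCODE M21 (97.5% of symbols found). The tools were scipy 1.17.1, pandas 2.3.3, numpy 2.4.6 and matplotlib 3.10.9 in Python 3.11.15.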

Additional observations from a re-analysis of the deposited data

Results flagged for a closer look

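The change at E11.5 differed from that at E13.5 by a test of the difference itself for 8 genes with the smallest p. For Fst, Hic1, Adamtsl2 and Nfix the log2 ratios differed by -1.86, -2.81, -2.23 and -3.60. For Abca1, Cdkn1c and Penk they differed by -1.38, -1.89 and -1.60, and in each of these 7 genes the E11.5 fall was the called one. For Gja4 the difference was -1.66, with a log2 ratio of -0.52 at E11.5 and 1.14 at E13.5.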

How the results depend on the processing

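The counts of calls depended most on the spread. With the test statistics rescaled so that their median size matched a standard normal, 3 genes were lower (Fst, Adamtsl2 and Serinc2), 2 higher (Ndnf and Phactr3) and 2 differed between stages (Fst and Gja4), in place of 522, 124 and 262, and 130 of 147 named genes lost their call. At an FDR of 0.1 there were 867 lower and 272 higher genes, at 0.01 there were 192 and 37, and with at least 2-fold 280 and 35. At an adjusted p of 0.1, 447 genes differed between stages. With no filter on low means, a mean of 100 or more, adjustment over genes with a mean of 10 or more, or equal sums (a shift of 0.044), the counts of lower and higher genes stayed within 1.5 times, and so did that of stage differences with no filter, the one of these run for it. No named gene changed direction under that adjustment, equal sums or rescaling, the settings run for single genes. In the 200 bases before the start CAGACA occurred in 8.33% of lower, 12.7% of higher and 10.2% of all promoters. No paired analysis was possible because the deposited tables hold no values per library, and leaving out replicates was not run for the same reason. Depth per library is unknown.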
